A study of Mus musculus with 100 samples.

Results

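The 10 genes described here encode the subunits of the complexes built around MLL3 and MLL4, enzymes that methylate lysine 4 of histone H3 (H3K4). They were chosen by name, and all 10 were found among the 23109 gene entries of the deposited RNA tables and passed the low-count filter in every comparison. Kmt2c codes for MLL3 and Kmt2d for MLL4. Kdm6a encodes the H3K27 demethylase UTX, and Paxip1 (PTIP), Pagr1a (PA1) and Ncoa6 (NCOA6) encode the other subunits found only in these complexes within the family. Wdr5, Rbbp5, Ash2l and Dpy30 encode the core subunits shared with the other H3K4 methyltransferase complexes. MLL3 and MLL4 are known mainly for monomethylation of H3K4 at enhancers and as partners of lineage-determining transcription factors during differentiation, and UTX removes a repressive mark at the same regions. Loss of MLL4 stops mouse development, and MLL3 and MLL4 can stand in for each other in part.

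The study tested what the enzymatic activities of MLL3 and MLL4 do in early development and in differentiating embryonic stem cells (ESCs). RNA tables of 37 libraries, which fall into 18 groups, were used; 1 further RNA sample, a neural day 8 library labelled Mll34DKO65, was not analysed here. All cultured cells lacked Mll3: the reference cells were Mll3-/-;Mll4flox/flox (flox below) and the knock-in cells Mll3-/-;Mll4KI/KI (KI below), the KI cells being clones 27 and 48 in every culture. Day 0 ESCs kept in 2i and LIF, day 4 and day 10 embryoid bodies (EBs) each had 1 flox library and 2 KI libraries. Neural cultures, made from EBs with retinoic acid, had 2 flox and 2 KI libraries at day 8 (progenitors) and 2 and 2 at day 16 (neurons). Trophectoderm-like cells (TE, day 6, after induction of a lentiviral T7-tagged CDX2) and extraembryonic endoderm-like cells (ExEn, day 5, in retinoic acid and activin A) each had 2 flox and 2 KI libraries. Embryos were taken whole at E8.5 or E9.5, with 3 control libraries (Mll3flox/KI;Mll4flox/+;Sox2-Cre) and 3 KI libraries (Mll3flox/KI;Mll4flox/KI;Sox2-Cre) at each stage. Sox2-Cre recombines in the epiblast and its derivatives, so extraembryonic tissue is spared, and the controls carry a KI allele of Mll3 as well. The labels do not spell out KI. In the cultures a KI group is 2 clones and each flox group 1 or 2 libraries. P-values there rest on a spread estimated over all libraries of a fit, not only those compared. In the EB course the same 2 clones recur on each day and were treated as separate libraries, so the p-values there do not measure the spread between independent lines.

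Total counts per table ran from 25419181 to 83946108 reads, and 18908148 to 59880727 reads remained on the transcript kept for each gene. No pair among the 23 pairs of replicates agreed within sampling noise: the chi-square per degree of freedom was 1.50 for the closest pair, the flox neural libraries of day 8, and 54.8 for the farthest. Clone 48 stood apart in Y-linked genes, with a level summed over 4 genes of 33.5 CPM (counts scaled to the library total after TMM normalization, which corrects totals for differences in composition) in ESCs against 243 CPM in clone 27 and 215 CPM in flox. Among the 12 embryos, 3 had Y-linked sums of 99.7 to 115 CPM and the other 9 had 0 to 0.390 CPM. TE cells held the trophoblast marker Cdx2 (26.1 and 28.8 CPM in flox, 100.0 and 106 CPM in KI, transgene reads included or not) together with Pou5f1 (214 and 215 CPM in flox, 61.7 and 107 CPM in KI), a pluripotency gene. ExEn flox cells held Gata4 at 174 and 188 CPM and ExEn KI cells at 15.5 and 17.8 CPM. Fewer cells of a type and less RNA per cell cannot be told apart in these bulk samples.

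Paxip1 and Pagr1a encode partners that bind each other, and the upstream sequence of both is shown because both hold the same palindrome, GCGCA followed by its reverse complement TGCGC, known as the binding motif of the transcription factor NRF1. Upstream windows from RefSeq (GRCm38.p6) were used for 9 of the 10 genes, all but Ash2l. These 9 genes have 12 windows, 4 of them of Dpy30. Counts for the 9 are of genes, while the shares over all are of windows. The palindrome, which reads the same on both strands, was in the 250 bases before the start of 2 of the 9 genes and in 0.782% of the 32851 windows of that length over all genes. The GC box, GGGCGG searched on both strands, was in the windows of 5 of the 9 genes and in 32.7% of all. The other motifs searched, on both strands, were the E-box CACGTG, in 1 of the 9 genes and 6.02% of all windows, and the TATA box TATAAA, in 1 of the 9 and 12.4%. The stretches printed lie outside every annotated gene, 5′ to 3′ on the minus strand, at chr5:27791673-27791800 for Paxip1 and chr7:127017353-127017541 for Pagr1a. Capitals mark the palindrome, 1 in each stretch, and the GC box, which is in the Paxip1 stretch alone.
Paxip1: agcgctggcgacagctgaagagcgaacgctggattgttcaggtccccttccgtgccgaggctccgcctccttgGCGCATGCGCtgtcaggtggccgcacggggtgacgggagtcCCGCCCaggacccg
Pagr1a: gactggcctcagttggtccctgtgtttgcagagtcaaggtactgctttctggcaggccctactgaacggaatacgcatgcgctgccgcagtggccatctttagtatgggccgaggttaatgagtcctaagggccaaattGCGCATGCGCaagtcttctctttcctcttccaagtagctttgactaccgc
A match to these letters is a description of the sequence, and binding was not tested. Over the 37 libraries the log2 levels of Paxip1 and Pagr1a had a Pearson r of 0.72, and those of Paxip1 and Dpy30, whose windows hold no palindrome, had 0.95.

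All 10 genes were read in every library, on levels that differed by gene length. Compared per length, in the deposited RPKM (reads scaled to transcript length and library total), Kmt2c was the lowest of the 10 in all 37 libraries, with a median level of 2.00 RPKM and a range of 1.19 to 4.31. Kmt2d had a median level of 7.29 RPKM and ranked between the sixth and the ninth place. The small core subunit Dpy30 and the core subunit Ash2l led, with median levels of 50.3 and 48.1 RPKM, followed by Wdr5 at 31.1 RPKM and Pagr1a at 26.1 RPKM. Paxip1, Rbbp5, Ncoa6 and Kdm6a lay between, from a median level of 13.1 RPKM for Paxip1 to 8.76 RPKM for Kdm6a. The transcripts of Kmt2d and Kmt2c are 28.2 and 23.9 times as long as that of Dpy30, the shortest, as the tables' counts and RPKM imply. Since all cultured cells were Mll3-/-, the Kmt2c reads there come from a gene that the labels give as inactivated. The counts cover the whole transcript and are no check of the deleted part, nor of the KI allele.

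Kmt2d exceeded Kmt2c per length in 37 of 37 libraries, by a ratio that varied between cultures and stages. The Mll3 genotype differs between cultures and embryos, and the molecule label differs between library sets. Between those sets, stage, genotype and library type cannot be told apart. The RPKM ratio was 5.69 in flox ESCs and 5.81 ± 0.43 (SD, n = 2) in KI ESCs, then 8.37 in flox and 7.63 and 8.24 in KI day 4 EBs, and 2.78 in flox and 3.22 and 3.57 in KI day 10 EBs. It was lowest in neurons at day 16, with 1.68 and 1.99 in flox and 1.49 and 1.54 in KI cells. It was 7.99 and 8.67 in flox ExEn cells, 3.43 and 3.86 in flox TE cells, 4.36 to 4.70 in control E8.5 embryos and 2.87 to 3.50 in control E9.5 embryos. The plot of this ratio shows the spread between stages as wider than that between KI and flox or control at any stage.

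**Figure D1:**
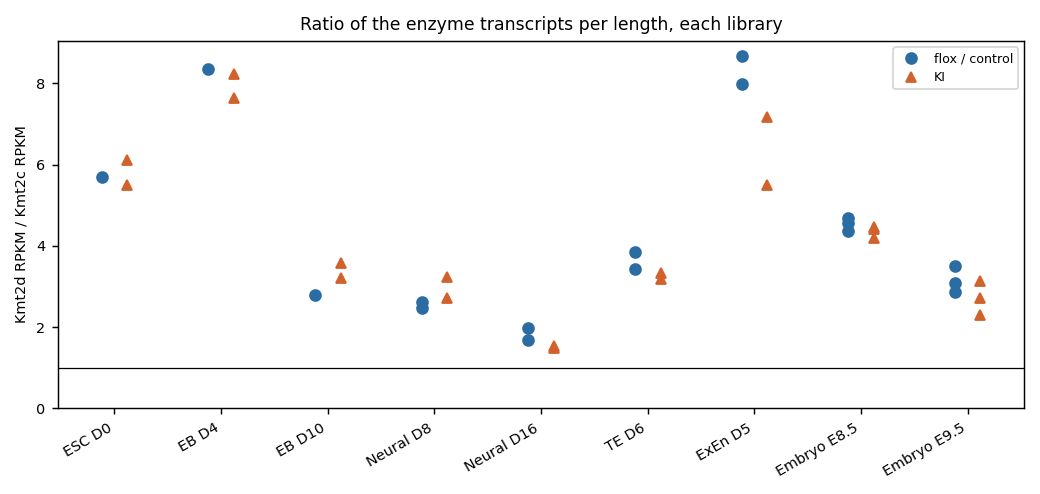
RPKM of Kmt2d divided by RPKM of Kmt2c (y axis, from 0; black line at 1) in each of the 37 libraries, by culture or embryo stage (x axis); circles are flox or control libraries and triangles KI libraries. All points lie above 1, from 1.49 in KI neurons of day 16 to 8.67 in flox ExEn cells.

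In KI cells Kmt2c rose and Kmt2d fell from day 4 to day 10 of EB culture and from day 8 to day 16 of neural culture; in flox neural cultures Kmt2c passed the test and Kmt2d did not, which changed with the length trend removed. In the KI clones 27 and 48, Kmt2c stood at 39.2 and 37.5 CPM in ESCs, 35.3 and 35.9 CPM at day 4 and 66.9 and 52.5 CPM at day 10; flox had 32.1, 28.6 and 61.9 CPM. Both clones and flox were higher at day 10 than before. The rise from day 4 to day 10 in KI was 0.70 on the log2 scale (SE 0.12; edgeR quasi-likelihood test, adjusted p = 0.0013). In the neural cultures Kmt2c went from 61.0 and 62.8 CPM at day 8 to 104 and 95.5 CPM at day 16 in flox, and from 63.2 and 56.4 to 95.6 and 107 CPM in KI. The groups did not overlap, and the log2 changes were 0.55 in flox (SE 0.10, adjusted p = 0.000205) and 0.64 in KI (SE 0.10, adjusted p = 5.01e-05; edgeR). With the trend of log ratio on transcript length taken out of each library, the neural differences were -0.17 in flox (adjusted p = 0.0645) and -0.11 in KI (adjusted p = 0.217) and the direction was turned.

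Kmt2d was highest in day 4 EBs of KI, at 343 and 323 CPM, above 254 and 270 CPM in ESCs and 254 and 221 CPM at day 10. Its change from day 0 to day 4 in KI was 0.35 (SE 0.09, adjusted p = 0.0146; edgeR), a call lost after removal of the length trend (-0.07, adjusted p = 0.536) and without any 1 of the 4 libraries (adjusted p from 0.0656 to 0.125). From day 4 to day 10 it fell by 0.53 on the log2 scale (SE 0.09, adjusted p = 0.00115). In neural flox cultures Kmt2d had 188 and 183 CPM at day 8 and 206 and 224 CPM at day 16, which did not pass the test (0.07, SE 0.12, adjusted p = 0.616; edgeR). With the length trend removed Kmt2d was called lower there (-0.71, adjusted p = 5.1e-05), the opposite direction. In neural KI cultures it fell from 241 and 181 CPM to 174 and 189 CPM, by 0.34 on the log2 scale (SE 0.12, adjusted p = 0.0239). The KI day 8 libraries differed among themselves by more than that fall, and clone 48 at day 8 lay within the day 16 values. The call was lost without clone 27 of day 8 (-0.11, adjusted p = 0.370) or of day 16 (-0.27, adjusted p = 0.140), and with TMM over all 37 libraries, the scaling of the CPM values (-0.22, adjusted p = 0.118).

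In KI the 4 core subunits fell as cells left the ESC state. Wdr5, whose protein is a scaffold of the core, had the widest range of the 10: 422 CPM in flox ESCs and 302 and 334 CPM in KI ESCs, against 135 CPM in flox and 170 and 170 CPM in KI EBs of day 4, and 57.6 and 56.3 CPM in flox neurons of day 16. Its highest group mean, that of the single flox ESC library, was 7.88-fold its lowest, and Dpy30 came next at 6.65-fold. The rank by fold rests on that library. KI ESCs had means of 318 CPM of Wdr5 and 105 CPM of Dpy30, against lowest group means of 53.5 and 17.6 CPM. Between day 0 and day 4 in KI, 6 of the 10 genes fell and 1 rose, where 50.3% of all 15676 genes tested were called (26.5% higher, 23.8% lower). The falls were 1.03 for Rbbp5, 0.90 for Wdr5, 0.79 for Ash2l, 0.73 for Ncoa6, 0.37 for Paxip1 and 0.35 for Dpy30 on the log2 scale, and the fall in Ncoa6 was followed by a rise. The Dpy30 call was lost with the length trend removed (adjusted p = 0.0655) and without 3 of the 4 libraries, taken 1 at a time (0.0626 to 0.121). Kmt2c, at -0.11 (adjusted p = 0.507; edgeR), was called lower with the length trend removed (-0.50, adjusted p = 0.00685). In the single flox libraries, which allow no test, 5 of those 6 genes were highest at day 0 (Ncoa6 was highest at day 10), as for Rbbp5 (126, 58.8 and 54.3 CPM at days 0, 4 and 10) and Ash2l (355, 134 and 114 CPM). Between day 4 and day 10 in KI, 6 fell and 2 rose, where 73.3% of all genes were called (36.7% higher, 36.6% lower). Rbbp5 was called lower too with the length trend removed (adjusted p = 0.0284) and without clone 27 of day 10 (0.00575), and Kdm6a higher without clone 48 of day 10 (0.33, adjusted p = 0.00178). Cell type markers moved with these stages in KI. Pluripotency markers (6 genes, none at 0) summed to 4091 and 4494 CPM at day 0, 1334 and 1413 CPM at day 4 and 114 and 146 CPM at day 10. From day 4 to day 10 fibroblast markers (4 genes, none at 0) went from 72.6 and 88.8 CPM to 3078 and 9366 CPM and extraembryonic endoderm markers (6 genes, none at 0) from 107 and 115 CPM to 1106 and 1291 CPM. Their part in the changes was not tested.

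Dpy30, which docks onto Ash2l and raises the enzyme's activity, showed the largest of these falls: 79.7 and 84.3 CPM at day 4 and 23.1 and 24.8 CPM at day 10 in KI. That is 1.82 lower on the log2 scale (-1.82, SE 0.09, adjusted p = 3.74e-06; edgeR). Flox went from 64.6 to 24.7 CPM. Paxip1 followed with -1.28 (SE 0.07), from 118 and 116 to 50.1 and 49.7 CPM, then Pagr1a with -0.99 (SE 0.14), from 51.2 and 56.1 to 23.8 and 31.6 CPM. Ncoa6, a nuclear receptor coactivator, went the other way, from a mean of 58.3 ± 0.95 (SD, n = 2) to 126 ± 8.59 CPM (SD, n = 2) (1.07, SE 0.08, adjusted p = 1.86e-05; edgeR). Ncoa6 and Dpy30 levels had a Pearson r of -0.84 over the 37 libraries, the lowest of the 45 pairs among the 10 genes, of which 11 were above 0.5 and 7 below -0.5. The libraries share stages and clones, so these coefficients describe them and carry no p.

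From neural day 8 to day 16, the flox cultures gave 2 of the 10 genes higher and 6 lower, and the KI cultures 1 higher and 7 lower. Of all 16439 genes, 77.1% were called in flox (38.4% higher, 38.7% lower), against 79.9% in KI (40.7% higher, 39.2% lower). Kdm6a had the largest fall: 62.1 and 60.8 CPM at day 8 against 36.9 and 31.6 CPM at day 16 in flox (-0.98, SE 0.10, adjusted p = 1.25e-06; edgeR), and 69.5 and 66.5 against 34.9 and 35.6 CPM in KI (-1.07, SE 0.10, adjusted p = 4.27e-07). Paxip1, Wdr5, Rbbp5, Ash2l and Dpy30 fell in both genotypes, by 0.27 to 0.94 in flox and by 0.57 to 0.81 in KI on the log2 scale. The smallest, Rbbp5 in flox, was lost with scaling over all 37 libraries (adjusted p = 0.244) and without 3 of the 4 libraries, taken 1 at a time (0.0979 to 0.123). Ncoa6, higher at day 16 in flox (0.29, adjusted p = 0.0326; edgeR), was lost under 6 of 11 alternatives. In KI it did not pass (0.07, adjusted p = 0.592) but was called lower with the length trend removed (-0.31, adjusted p = 0.0134), the opposite direction. Pagr1a in flox (-0.22, adjusted p = 0.0592; edgeR) was called lower with library totals (0.0286), no low-count filter (0.0358), counts summed over transcripts (0.0310) and without the second flox library of day 16 (0.0108). In KI Pagr1a (-0.11, adjusted p = 0.337; edgeR) was called lower with library totals (-0.31, adjusted p = 0.00999). Neuron markers (5 genes, none at 0) summed to 1100 and 1111 CPM at day 8 and 2579 and 2795 CPM at day 16 in flox, and fibroblast markers (4 genes, none at 0) to 134 and 135 CPM and to 1497 and 1722 CPM. The part of this change in cell makeup in the falls was not tested.

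**Figure D2:**
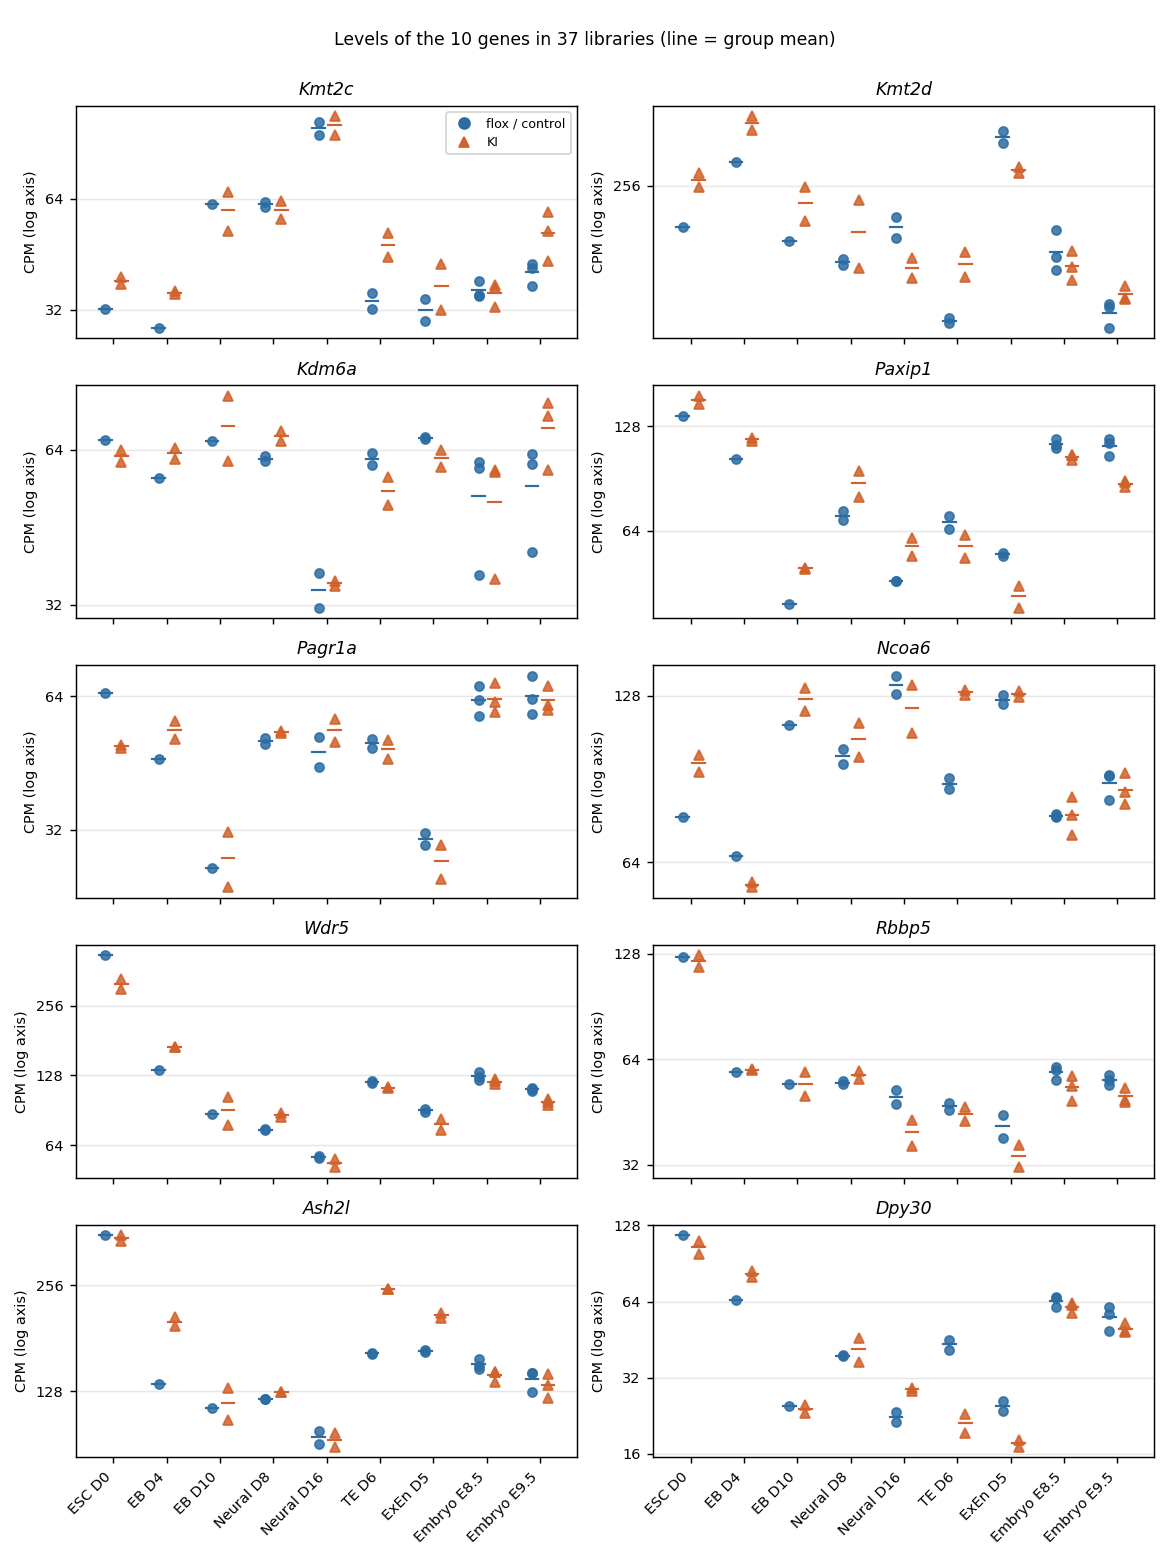
Level in CPM (y axis, log scale) of each of the 10 genes in the 37 libraries, by culture or embryo stage (x axis); circles are flox or control libraries, triangles KI libraries and short lines group means. Wdr5, Rbbp5, Ash2l and Dpy30 are highest in ESCs (day 0), Kmt2c is highest in neurons of day 16 and Kmt2d in KI day 4 EBs.

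Of the 17 neighbouring pairs in each gene's order of the 18 groups, the library values overlapped in 6 for Wdr5 and in 15 for Rbbp5, the extremes among the 10 genes, and 3 of the groups have 1 library and hence no spread. Kmt2c separated the neurons (mean level 99.6 CPM in flox, 101 CPM in KI, n = 2 each, not apart from each other) from the next group, flox neural progenitors (61.9 CPM), while the 6 groups from E8.5 KI embryos (35.5 CPM) to E9.5 control embryos (40.5 CPM) overlapped from neighbour to neighbour with flox TE cells (33.8 CPM) below them. The genes most like each member in pattern over the 37 libraries, among 14432 others with a mean of at least 1 CPM, were Grid1 (r = 0.93), Vps39 (0.92) and Slc39a3 (0.92) for Kmt2c. For Kmt2d they were Prrc2c (0.87), Son (0.84) and Abl2 (0.84), and for Kdm6a Rad18 (0.78), Traf6 (0.78) and Pls1 (0.76). The single most alike genes were Ptma for Paxip1 (0.96), Lrrc45 for Pagr1a (0.96), Abca1 for Ncoa6 (0.92), Cebpz for Wdr5 (0.96), Ccdc43 for Rbbp5 (0.90), Usp7 for Ash2l (0.95) and Gpn1 for Dpy30 (0.96).

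TE and ExEn cells, the extraembryonic lineages, differed in these genes already in flox. Kmt2d had 144 and 146 CPM in flox TE cells and 322 and 306 CPM in flox ExEn cells, a log2 difference of -1.11 for TE over ExEn (SE 0.06, adjusted p = 8e-10; edgeR). Ncoa6 was lower in TE as well (86.8 and 90.9 against 128 and 124 CPM; -0.50, SE 0.06), a difference of -0.08 with the length trend removed (adjusted p = 0.290). Dpy30, Pagr1a, Wdr5 and Paxip1 were higher in TE, with log2 differences of 0.80, 0.72, 0.41 and 0.31. The Paxip1 call was lost without the second flox library of TE (adjusted p = 0.0925) or of ExEn (0.0652). These 6 of 10 stood beside 64.7% of all 15532 genes called in flox (32.2% higher, 32.5% lower). With the length trend removed Kmt2c, at 0.08 before (adjusted p = 0.629), was called higher in flox TE (0.89, adjusted p = 1.07e-05), as was Rbbp5 (0.28, adjusted p = 0.0242), which also passed with library totals (0.0289) and without the first flox ExEn library (0.0482). In KI 6 were higher and 2 lower, beside 63.1% (32.3% higher, 30.8% lower). Of those, Kmt2c was lost without clone 48 of TE (adjusted p = 0.170) or clone 27 of ExEn (0.219). Kdm6a was lost by DESeq2 (0.0578), with library totals (0.0710), with the length trend removed (0.543) and without clone 48 of TE (0.267) or of ExEn (0.173). In KI the Kmt2d difference was -0.56 (SE 0.06), and with the length trend removed it was 0.38 (adjusted p = 1.65e-05), the opposite direction. Ncoa6 in KI went from 0.02 (adjusted p = 0.802) to 0.42 (adjusted p = 3.71e-05) in that setting. Dpy30 in KI (0.27, adjusted p = 0.0553) was called higher with library totals (0.0398), with counts summed over transcripts (0.0462) and without clone 27 of TE (0.0207). Marker sums differed between the lineages. In flox, pluripotency markers summed to 898 and 921 CPM in TE and at most 66.6 CPM in ExEn cells, extraembryonic endoderm markers to 78.5 and 81.8 CPM against 855 and 887 CPM, and fibroblast markers to 278 and 282 CPM against 1466 and 1559 CPM. In KI they were 252 and 342 against 73.7 and 77.1 CPM, 89.8 and 106 against 228 and 236 CPM, and 61.1 and 106 against 162 and 282 CPM. No gene of these 3 lists was at 0, and their part in the lineage differences was not tested.

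In KI against flox TE cells 4 of the 10 genes rose and 1 fell. Dpy30 had 45.3 and 41.3 CPM in flox and 19.4 and 22.9 CPM in KI, so that the highest KI library lay well under the lowest flox library. The log2 fold change was -1.02 (SE 0.11, adjusted p = 3.43e-06; edgeR). Ash2l, Dpy30's binding partner in the core, had 163 and 164 CPM in flox and 250 and 250 CPM in KI (0.62, SE 0.05, adjusted p = 2.13e-07). Ncoa6 had 86.8 and 90.9 CPM in flox and 131 and 129 CPM in KI (0.56, SE 0.06, adjusted p = 3.24e-06). Kmt2d, the gene that carries the KI allele, rose from 144 and 146 CPM to 174 and 194 CPM (0.35, SE 0.06, adjusted p = 0.000145). Kmt2c rose from 35.5 and 32.2 CPM to 44.4 and 51.7 CPM (0.52, SE 0.13, adjusted p = 0.00517), which gave an adjusted p of 0.0825 without the second flox library. The other 5 did not pass: Kdm6a (-0.19), Paxip1 (-0.22), Wdr5 (-0.07), Rbbp5 (-0.06) and Pagr1a (-0.03). Of these, Kdm6a and Paxip1 were near the threshold (adjusted p = 0.0609 and 0.0665; edgeR) and were each called lower under 4 alternatives, among them library totals (0.0267 and 0.0357), no low-count filter (0.0253 and 0.0202) and without KI clone 27 (0.0140 and 0.0142).

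Those 5 of 10 compare with 50.9% of all genes called in TE cells (26.7% higher, 24.2% lower), a share near that of the 10 genes. The median absolute log2 change of the 10 genes was 0.29 and that of all genes 0.41. Marker sums moved with the genotype: trophoblast markers (6 genes, none at 0) summed to 2916 and 2982 CPM in flox and 4998 and 5269 CPM in KI, and pluripotency markers (6 genes, none at 0) to 898 and 921 CPM in flox and 252 and 342 CPM in KI. Their part in the changes was not tested.

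In ExEn cells 5 of 10 genes were called, beside 35.6% of all genes (18.1% higher, 17.5% lower). Ash2l rose again, from 168 and 165 CPM in flox to 214 and 207 CPM in KI (0.34, SE 0.05, adjusted p = 0.000135; edgeR). Dpy30 fell from 26.0 and 23.7 CPM to 18.1 and 17.1 CPM (-0.49, SE 0.12, adjusted p = 0.00488), Paxip1 from 55.3 and 54.3 to 44.4 and 38.5 CPM (-0.40, SE 0.10, adjusted p = 0.00527), Kmt2d from 322 and 306 to 270 and 276 CPM (-0.20, SE 0.06, adjusted p = 0.0155) and Wdr5 from 91.8 and 88.8 to 83.1 and 74.6 CPM (-0.19, SE 0.07, adjusted p = 0.0402). The flox and KI libraries were free of overlap in 7 of the 10 genes, a share near the 69.6% of all genes. Without the first flox library the calls on Kmt2d, Wdr5 and Dpy30 were lost (adjusted p = 0.162, 0.220 and 0.0587), which left Ash2l and Paxip1. Kmt2d was also lost without KI clone 27 (0.0559). Wdr5 was also lost by DESeq2 (0.0546), with library totals (0.0850), with only the 2 groups (0.0546), without the second flox library (0.108) and without KI clone 48 (0.275). Rbbp5, just outside the threshold (-0.28, adjusted p = 0.0507; edgeR), was called lower with TMM over all 37 libraries (0.0484), no low-count filter (0.0295), without the second flox library (0.0363) and without KI clone 27 (0.0216). Kmt2c (0.22, adjusted p = 0.241; edgeR) was called higher without KI clone 27 (0.41, adjusted p = 0.0200). Markers of extraembryonic endoderm (6 genes, none at 0) summed to 855 and 887 CPM in flox and 228 and 236 CPM in KI. Fibroblast markers (4 genes, none at 0) summed to 1466 and 1559 CPM in flox and 162 and 282 CPM in KI. The trophoblast list summed to 3104 and 3112 CPM in flox ExEn cells, above the 2916 and 2982 CPM of flox TE cells, so the list does not set TE apart from ExEn in flox, and to 3839 and 4495 CPM in KI ExEn cells, where Elf5 was at 0. The part of these markers was not tested.

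**Figure D3:**
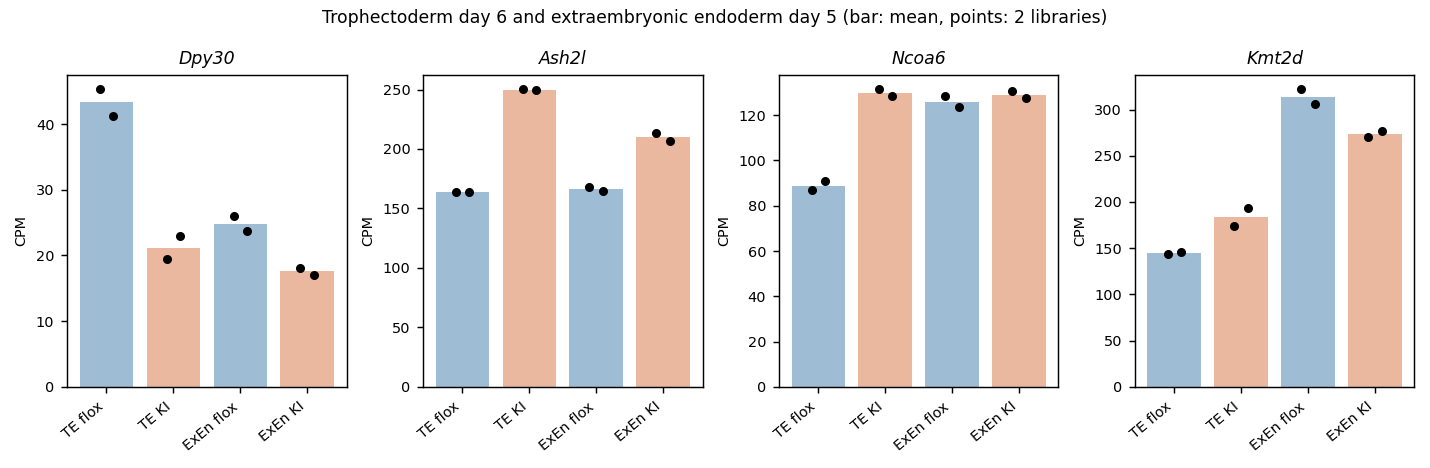
Level in CPM (y axes, from 0) of Dpy30, Ash2l, Ncoa6 and Kmt2d in TE and ExEn cells; bars are means of 2 libraries and points the libraries. Dpy30 falls and Ash2l rises in KI in both lineages, Ncoa6 rises in TE (from 86.8 and 90.9 to 131 and 129) and Kmt2d moves up in TE and down in ExEn.

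The KI differences of 4 genes depended on the lineage by a test of the difference itself, beside 35.3% of all genes (18.3% higher, 17% lower). The log2 difference TE minus ExEn was 0.55 for Kmt2d (SE 0.08, adjusted p = 0.000127; edgeR), which moved in opposite directions, and 0.52 for Ncoa6 (SE 0.09, adjusted p = 0.000312). It was 0.28 for Ash2l (SE 0.07, adjusted p = 0.00816) and -0.53 for Dpy30 (SE 0.16, adjusted p = 0.0211), both of which moved the same way in both lineages and further in TE. The Dpy30 call was lost with the length trend removed (-0.36, adjusted p = 0.101), and without 4 of the 8 libraries, taken 1 at a time (adjusted p from 0.0538 to 0.0786). The Ash2l call was lost without either flox TE library (0.0548 and 0.0573) or the first flox ExEn library (0.0747). Kmt2c (0.30, adjusted p = 0.245; edgeR) was called without KI clone 48 of ExEn (0.49, adjusted p = 0.0298).

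In the neural cultures Paxip1, the BRCT-domain adaptor specific to these complexes, was higher in KI at both stages. It had 72.9 and 68.9 CPM in flox and 95.1 and 80.3 CPM in KI at day 8 (0.32, SE 0.10, adjusted p = 0.0465; edgeR), and 45.9 and 46.0 CPM in flox and 54.4 and 61.1 CPM in KI at day 16 (0.36, SE 0.10, adjusted p = 0.0135). Day 8 gave 1 of 10 genes called beside 19.5% of all genes (6.3% higher, 13.2% lower), and that call was lost under 6 of 11 alternatives, among them leaving out either flox library or KI clone 27 (adjusted p from 0.142 to 0.341). Calls gained at day 8 were Wdr5, higher with the length trend removed (0.0216) and with only the 2 groups (0.0194), and Kmt2d, higher without KI clone 48 (0.39, adjusted p = 0.0364). At day 16, 3 of 10 were called beside 46.9% (27.1% higher, 19.7% lower; 2059 higher and 4783 lower genes with library totals in place of 4459 and 3245). Dpy30 rose from 23.5 and 21.4 CPM to 28.4 and 29.3 CPM (0.39, SE 0.11, adjusted p = 0.0126), and Rbbp5 fell from 52.2 and 47.7 CPM to 43.0 and 36.2 CPM (-0.31, SE 0.10, adjusted p = 0.0255). Without KI clone 48 none of the 3 was called (adjusted p = 0.0901 for Paxip1, 0.0572 for Dpy30 and 0.211 for Rbbp5), and scaling by library totals lost the calls on Paxip1 (0.15, adjusted p = 0.253) and Dpy30 (0.19, adjusted p = 0.197) and gave calls on Kmt2d (-0.42, adjusted p = 0.0184) and Wdr5 (-0.26, adjusted p = 0.0291), so that all 3 genes then called were lower. Dpy30 was also lost without the second flox library (0.0671) and Rbbp5 without the first (0.109), and with only the 2 groups both Paxip1 and Dpy30 were lost (0.111 and 0.0956). Pagr1a was called higher without the second flox library (0.31, adjusted p = 0.0295). The neuron marker sum at day 16 was 2579 and 2795 CPM in flox and 4547 and 5179 CPM in KI, and the fibroblast sum 1497 and 1722 CPM in flox and 438 and 473 CPM in KI. At day 8 the neuron sum was 1100 and 1111 CPM in flox and 727 and 839 CPM in KI, and the fibroblast sum 134 and 135 CPM in flox and 38.3 and 51.1 CPM in KI. The part of these markers in the calls was not tested. The KI difference itself differed between day 16 and day 8 in 0 of the 10 genes by edgeR (33.2% of all genes, 19.2% higher and 14% lower), in 3 at an unadjusted p under 0.05 and in 2 by DESeq2. With line or clone as a block, Rbbp5 was called (-0.39, adjusted p = 0.0392; 0.0523 without the block). Calls on a gene in this test came under 8 alternatives for Rbbp5, the block among them, 4 for Kmt2d (adjusted p from 0.0106), 2 for Wdr5 (from 0.0151) and 1 for Dpy30 (0.0493).

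**Figure D4:**
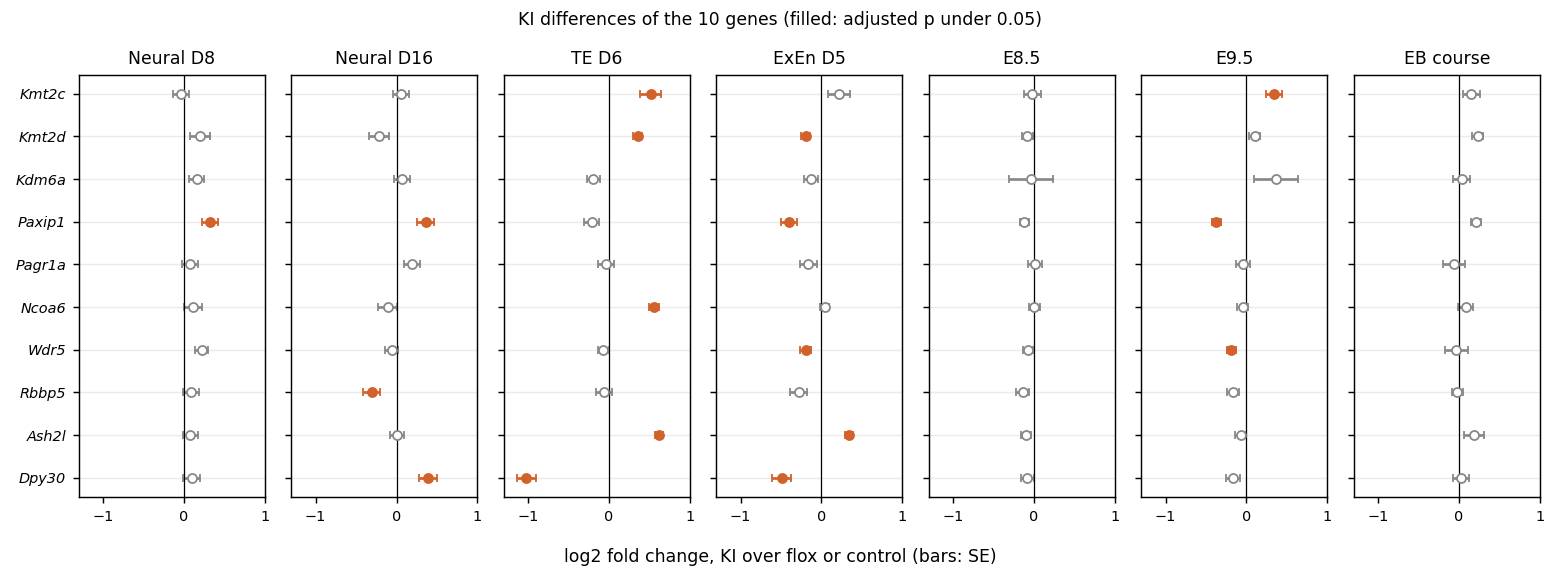
Log2 fold change of KI over flox or control (x axes; points, with the SE as bars) for the 10 genes (rows) in 7 comparisons (panels); filled points have an adjusted p under 0.05. Changes range from -1.02 (Dpy30, TE) to 0.62 (Ash2l, TE), and the E8.5 and EB course panels hold no filled point.

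Embryos at E8.5 gave 0 of 10 genes called by edgeR and 0 by DESeq2, with 0 at an unadjusted p under 0.05, beside 5.46% of all 15436 genes (3.63% higher, 1.83% lower; 843 genes, or 1304 with the number shared by embryo labels as a block). The log2 differences lay between -0.14 (Rbbp5) and 0.01 (Pagr1a). At E9.5, 3 of 10 were called beside 29.5% (14.6% higher, 14.9% lower). Paxip1 had 115, 117 and 105 CPM in control and 88.3, 85.5 and 89.1 CPM in KI embryos, with no overlap (-0.37, SE 0.06, adjusted p = 0.000136; edgeR), and this call held under all 14 alternatives tried. Wdr5 had 112, 109 and 112 CPM in control and 101, 98.5 and 95.7 CPM in KI embryos (-0.19, SE 0.06, adjusted p = 0.0200), lost without control embryo 1, KI embryo 2 or KI embryo 3 (0.0578, 0.0526 and 0.0737). Kmt2c had 41.5, 42.7 and 37.1 CPM in control and 43.3, 58.9 and 52.5 CPM in KI embryos (0.34, SE 0.10, adjusted p = 0.0162). The Kmt2c call was lost without KI embryo 2 (adjusted p = 0.132), without control embryo 3 (0.0675) and with the length trend removed (0.0837). Dpy30 (-0.17, adjusted p = 0.140; edgeR) was called lower without control embryo 2 (-0.26, adjusted p = 0.0284).

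Other markers differed between the E9.5 groups. Neuron markers (5 genes, none at 0) summed to 126 to 194 CPM in control and 32.2 to 36.8 CPM in KI embryos, and blood markers (5 genes, none at 0) to 3093 to 8550 CPM and 572 to 2919 CPM. Neural progenitor markers were lower in KI too (435 to 584 and 231 to 273 CPM). Higher in KI were heart (238 to 326 and 520 to 1053 CPM) and fibroblast markers (389 to 955 and 1101 to 1576 CPM). So were trophoblast (150 to 311 and 426 to 471 CPM) and extraembryonic endoderm markers (105 to 113 and 243 to 254 CPM). Pluripotency and mesoderm sums overlapped. Their part in the 3 calls was not tested. The KI difference did not pass the test of change between E8.5 and E9.5 for any of the 10 genes by edgeR (6.63% of all genes, 3.39% higher and 3.24% lower; 2 of the 10 by unadjusted p), and DESeq2 called 1, Paxip1 (-0.27, adjusted p = 0.0339). Paxip1 was also called with the length trend removed (0.0222) and without control embryo 3 of E9.5 (0.0373), and Kmt2c without KI embryo 1 of E9.5 (0.47, adjusted p = 0.0335). Between E8.5 and E9.5 in control embryos, Kmt2d fell by 0.36 and Wdr5 by 0.18 on the log2 scale and Ncoa6 rose by 0.21, 3 of 10 beside 24.2% of all genes (12.2% higher, 12.1% lower). In the same control embryos blood markers summed to 686 to 1421 CPM at E8.5 and 3093 to 8550 CPM at E9.5, neuron markers (at most 1 gene at 0) to 32.1 to 37.0 and 126 to 194 CPM, and trophoblast markers (at most 1 at 0) to 533 to 670 and 150 to 311 CPM, and their part was not tested. The Ncoa6 call was lost without any 1 of 5 of the 6 libraries (adjusted p from 0.110 to 0.170; it was kept without control embryo 3 of E9.5), with scaling over all 37 libraries (0.0552), with counts summed over transcripts (0.134) and with the length trend removed (0.0825). The Wdr5 call was lost without control embryo 1 of E8.5 (0.0860) or 1 or 2 of E9.5 (0.0514 and 0.0873), with library totals (-0.11, adjusted p = 0.168) and with no low-count filter (0.0869). Dpy30 was called lower without control embryo 3 of E9.5 (-0.29, adjusted p = 0.0198). In KI embryos Kmt2c rose by 0.54 and Paxip1, Wdr5 and Dpy30 fell by 0.26, 0.29 and 0.29, 4 of 10 beside 32.5% (15.9% higher, 16.6% lower). The Dpy30 call was lost with library totals (-0.22, adjusted p = 0.0526), which gave one on Ncoa6 (0.22, adjusted p = 0.0295). In KI embryos blood markers summed to 111 to 209 CPM at E8.5 and 572 to 2919 CPM at E9.5, trophoblast markers to 755 to 876 and 426 to 471 CPM, and neuron markers to 28.8 to 33.2 and 32.2 to 36.8 CPM. Kmt2d did not pass (-0.17, adjusted p = 0.0602; edgeR), but was called lower by DESeq2 (0.0450), without KI embryo 1 of E8.5 (0.0307) and with the length trend removed (-0.48, adjusted p = 4.44e-05).

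Kdm6a is X-linked and is known to escape X inactivation, and its Y-linked paralog is Uty. Its level in the embryos followed the sex-linked genes. The library of control embryo 2 at E8.5 had 36.6 CPM of Kdm6a, KI embryo 2 at E8.5 had 35.9 CPM and control embryo 2 at E9.5 had 40.5 CPM. These 3 libraries had Uty at 13.9, 14.1 and 16.3 CPM and Xist, the RNA of the inactive X, at 0.275 to 0.737 CPM. The other 9 libraries had Kdm6a at 57.9 to 78.9 CPM, Xist at 784 to 1376 CPM and at most 2 reads on Uty. All 3 E9.5 KI libraries are among those 9. The E9.5 log2 difference of Kdm6a was 0.37 (SE 0.27, adjusted p = 0.358; edgeR) and 0.18 (SE 0.28) without control embryo 2. The SE of Kdm6a at E9.5 was the largest of the 10 genes, where the next was 0.10. In the cultures clone 48 had Uty at 3.07 to 6.83 CPM and clone 27 at 17.7 to 30.1 CPM, while Kdm6a was 63.8 CPM in clone 48 and 60.6 CPM in clone 27 in ESCs, 60.7 and 81.3 CPM in EBs of day 10 and 50.0 and 56.6 CPM in TE cells.

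**Figure D5:**
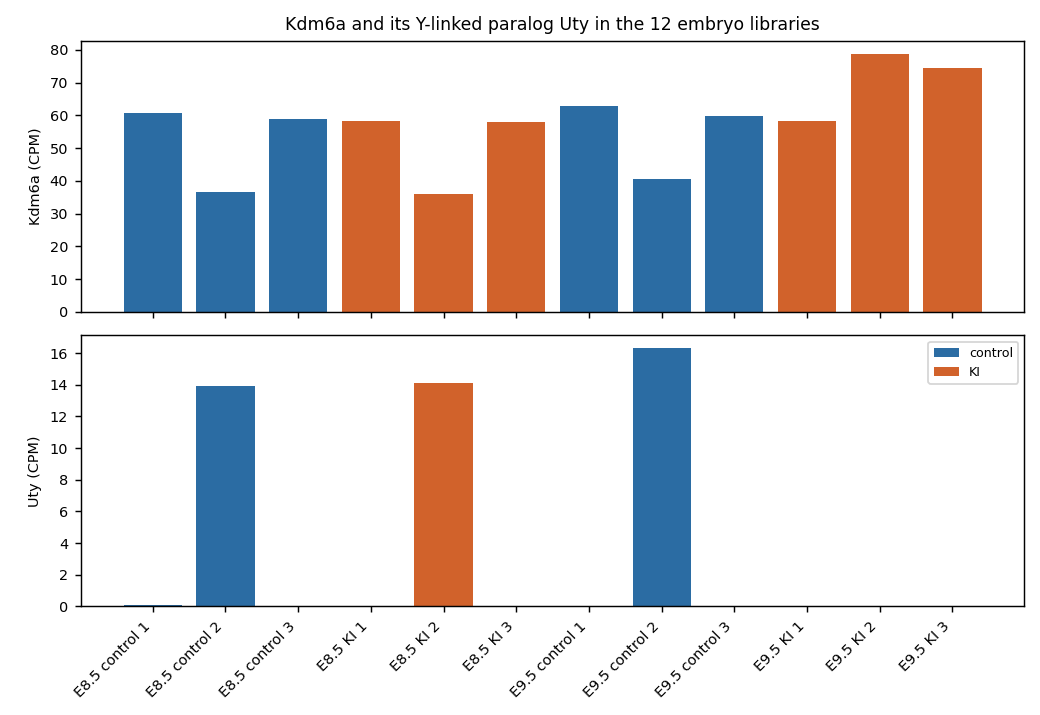
Level in CPM (y axes, from 0) of Kdm6a (top) and its Y-linked paralog Uty (bottom) in the 12 embryo libraries (x axis), blue for control and orange for KI. The 3 libraries with Uty at 13.9 to 16.3 have Kdm6a at 35.9 to 40.5, and the other 9 have 57.9 to 78.9.

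Over the EB course, KI against flox with the day as a term gave 0 of 10 genes called by edgeR, beside 0.73% of all 16567 genes (0.398% higher, 0.332% lower). Kmt2d and Paxip1 passed an unadjusted p of 0.05, and DESeq2 called 1, Kmt2d (adjusted p = 0.0398). Kmt2d was above flox in both clones on each day: 215 CPM in flox against 254 and 270 CPM in ESCs, 282 against 343 and 323 CPM at day 4, and 203 against 254 and 221 CPM at day 10 (0.23, SE 0.07, adjusted p = 0.162; edgeR). Paxip1 was also above flox in both clones on each day (0.21, SE 0.06, adjusted p = 0.172). None of the 10 genes differed by 2-fold or more in both clones on any day, beside 7.21%, 5.26% and 6.82% of genes at days 0, 4 and 10. The nearest was Ash2l at day 4, with 134 CPM in flox and 196 and 207 CPM in the clones. Heart markers (5 genes, none at 0) summed to 1589 CPM in the flox library of day 10 and to 141 and 210 CPM in the KI libraries, which allow no test.

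Genes of related machinery were counted from lists. Of 8 genes of the other H3K4 methyltransferase complexes, which share the core subunits, 4 were higher and 3 lower in TE KI cells, 0 higher and 4 lower in E9.5 KI embryos and 0 higher and 2 lower in ExEn KI cells. Of all genes, 50.9% were called in TE, 29.5% at E9.5 and 35.6% in ExEn, which is the background for these and the next lists. Wdr82, a subunit of the SET1 complexes, was the gene of that list lower in most comparisons: -0.18 in TE, -0.27 in ExEn and -0.32 at E9.5. Psip1, which tethers the Menin-bound complexes to chromatin, was called in 3 comparisons too, higher in neurons of day 16 (0.36) and lower in TE (-0.55) and at E9.5 (-0.28). Of 8 genes of PRC2 and H3K27 demethylation, 6 were higher and 1 lower in TE and 1 higher and 4 lower in ExEn. Ezh2, the PRC2 enzyme that writes the mark UTX removes, was lower in KI in neurons of day 16 (-0.37), TE (-0.35), ExEn (-0.64), E8.5 (-0.19) and E9.5 (-0.17). In TE it was the 1 lower gene of its list. The list's sum was higher in KI in TE (1504 and 1515 CPM in flox, 1836 and 1926 CPM in KI) and at E9.5 (1251 to 1270 and 1337 to 1363 CPM). The sum was lower in KI in ExEn (1744 and 1820 against 1546 and 1550 CPM) and at day 16 (770 and 810 against 701 and 708 CPM). At E8.5 the groups overlapped. The background was 46.9% of genes called at day 16 and 5.46% at E8.5. Of 10 enhancer coactivators, 2 were higher and 1 lower in TE, 3 higher and 2 lower in ExEn and 1 in each direction at E9.5.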

How the data were processed

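RNA tables of 37 libraries were analysed; per the labels' protocols poly(A) RNA was selected, while the molecule label reads polyA RNA for the ESC, EB and neural libraries and total RNA for the embryo, TE and ExEn libraries. Each deposited table holds a read count and an RPKM value for 29082 RefSeq transcripts. Per the submitters' processing notes, the build was mm9 and the tools named are bcl2fastq, Bowtie2, STAR and SICER 1.1; the counter, annotation and strand setting are not given in the sources used here. Counts were used as the authors deposited them, RPKM only to compare genes per length. RefSeq names matched 28436 transcripts; the other 646 (1.25% to 2.13% of reads) kept their IDs. Each gene was represented by its transcript with most reads (3 of the 10 genes have several: Ncoa6, Ash2l and Dpy30). Levels are CPM with TMM factors over all 37 libraries. Tests used edgeR 4.0.16 (R 4.3.3; filterByExpr, TMM within each fit, robust quasi-likelihood), with Benjamini-Hochberg adjustment over all genes and calls at an adjusted p under 0.05; the two-sided fits held 8 neural, 8 TE and ExEn, 12 embryo, 9 EB or 6 EB KI libraries. SE is the log2 change over the square root of F. The fits, tested on simulated data with 200 genes changed 2-fold, recovered 98% (neural day 8, TE) and 100% (E8.5, EB course), and unchanged genes made up 6.22%, 3.45%, 5.66% and 6.98% of the calls at neural day 8, TE, E8.5 and the EB course. Most KI differences of the 10 genes were smaller than 2-fold, and recovery at such sizes was not simulated. Nor was a share of changed genes like the 50.9% called in TE.

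The 10 genes and all lists were chosen with earlier results of these data known. Named by rule were the 10 genes and the genes most alike to them; the list genes named were chosen from those called in most comparisons. Marker lists covered pluripotency, neural progenitor, neuron, trophoblast, extraembryonic endoderm, mesoderm, heart, blood and fibroblast genes. Kmt2a and Setd1b, of the H3K4 list, were not analysed here, nor were the 63 samples of the series with no RNA table. KI libraries of a clone come from the same line, and the labels of embryos share numbers whose meaning is not stated; same-numbered E8.5 embryos deviated together (r from 0.15 to 0.35), E9.5 embryos did not in every pair (-0.0060 to 0.18).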

Additional observations from a re-analysis of the deposited data

Results flagged for a closer look

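The KI difference of 4 genes was unequal in TE and ExEn cells by the test of the difference itself (edgeR, log2 TE minus ExEn): 0.55 for Kmt2d, 0.52 for Ncoa6, 0.28 for Ash2l and -0.53 for Dpy30. Of these, Kmt2d changed in opposite directions, 0.35 in TE and -0.20 in ExEn. The call on Kmt2d within ExEn was lost without the first flox library or without KI clone 27 of ExEn. The 4 of 10 stand beside 35.3% of all genes called in that test. The Ash2l call was lost without the first or the second flox library of TE or the first of ExEn (adjusted p = 0.0548, 0.0573 and 0.0747). The Dpy30 call was lost with the length trend removed (0.101) and without the first flox library of TE, the second of ExEn or KI clone 27 of either lineage (0.0538 to 0.0786).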

How the results depend on the processing

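Most values for the 10 genes held. Of the alternative values, 2060 were the same, 82 fell short of the threshold, 63 passed it, 77 moved and 8 reversed, over 180 values. Same means called in 1 direction in both settings, or called in neither and shifted by less than the SE. Moved means called in neither and shifted by more. Reversed means a changed sign with a call in at least 1 setting, so a changed sign without any call is not counted there. All 8 reversals came with the length trend removed: from neural day 8 to day 16 in flox, Kmt2c -0.17, Kmt2d -0.71 (then past the threshold) and Ncoa6 -0.053, and in KI Kmt2c -0.11 and Ncoa6 -0.31 (past it); TE against ExEn in KI, Kmt2d 0.38 (past it) and Kdm6a 0.063; and KI EBs from day 0 to day 4, Kmt2d -0.066. The cause was not tested. The number of the 10 genes called in KI at neural day 8 was 1 and became 0 with library totals, 0 with TMM over 37 libraries, 0 with counts summed over transcripts, 2 with the length trend removed, 2 with only the 2 groups, and 0 to 2 leaving out 1 library. At neural day 16 it was 3 (2 higher and 1 lower, but 0 higher and 3 lower with library totals), 1 with only the 2 groups and 0 to 3 leaving out 1 library. For day 16 minus day 8 it was 0, 2 by DESeq2, 3 with library totals, 1 with TMM over 37 libraries, 1 with no low-count filter, 3 with the length trend removed, 1 with the replicate block and 0 to 2 leaving out 1 library. Leaving out 1 library gave 4 to 7 in TE, 2 to 6 in ExEn, 2 to 5 for TE minus ExEn, 1 to 4 at E9.5, 0 to 1 for E9.5 minus E8.5 and 1 to 4 for E9.5 against E8.5 in controls. For E9.5 minus E8.5 it was 1 by DESeq2 and 1 with the length trend removed, and for the EB course 1 by DESeq2. The replicate block changed no other count of the 10 genes.

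Over all genes, leaving out 1 library took neural day 8 from 3202 calls to as few as 1896, day 16 minus day 8 from 5450 to 3621, ExEn from 5522 to 3640, E8.5 from 843 to 363 and KI EBs of day 4 against day 0 from 7881 to 4983. E9.5 minus E8.5 had 1024 calls, 1547 with the block and 607 without KI embryo 2 of E9.5. The EB course had 121, 777 by DESeq2, 26 to 332 leaving out 1 library, 0 with only clone 27 and 1 with only clone 48. Library totals changed the split of higher and lower calls from 3150 and 2300 to 1915 and 3179 for day 16 minus day 8, from 1877 and 1861 to 2371 and 1290 for E9.5 against E8.5 in controls, and from 2456 and 2557 to 3139 and 1885 in KI. They moved the median of all genes at neural day 16 from 0.09 to -0.12. Removing the length trend changed the split at neural day 8 from 1036 and 2166 to 1625 and 1992.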
